A study of Mus musculus with 10 samples.

Results

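Aminoacyl-tRNA synthetase genes were followed through mouse early development and after knockdown of Ago2, in 10 RNA-seq libraries. The members were all genes whose name is a letter for an amino acid followed by ars, with or without a closing 1 or 2, together with Eprs, Farsa and Farsb. This rule uses names only and found 29 of the 21437 genes in the table. 12 of them end in 2 and encode mitochondrial enzymes, and 17 encode cytoplasmic enzymes (Gars is known to supply both compartments and was counted as cytoplasmic). Synthetase genes with no row in the table, such as those for leucine, lysine and cytoplasmic threonine, were not analysed here, and neither was Ago2 itself.

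The 5 groups held 2 libraries each. MII oocytes, which are mature unfertilized eggs, were wild type and taken 16 h after hCG, the hormone that triggers ovulation. Control middle 2-cell embryos (40 h, wild type), control early 4-cell embryos (55 h, wild type) and Ago2 kd embryos at both times completed the series. Per the methods, zygotes were injected with small interfering RNAs against Ago2 and with antibodies to the AGO2 protein, which were mixed with the siRNA beforehand, and a scrambled siRNA was the negative control of the injections. The sources do not state for the sequenced embryos whether each received both agents, whether the controls were injected, or how many embryos made a library. All donors were 7 weeks old and superovulated. The labels give the strain ICR for every library, while the methods give ICR for the oocytes and an F1 cross for the embryos, so stage and strain may differ together. The labels do not say whether the replicates of a group came from separate collections, so p-values measure only the spread between these libraries, which may be technical.

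Each synthetase joins 1 amino acid to its transfer RNAs, and every cell that makes protein needs the whole set. Cytoplasmic enzymes serve the ribosomes of the cytosol, and part of them form a multi-synthetase complex held together by scaffold proteins. The mitochondrial enzymes are made from nuclear genes and serve the ribosomes inside mitochondria. Oocytes hold maternal mRNAs that are degraded after fertilization, while transcription from the embryo's own genome starts in force at the 2-cell stage.

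Values are FPKM, which scale the fragments of a gene to its exon length and to the size of the library and so can be compared between genes of different length. Sequencing depth was unknown. In bulk libraries like these, fewer cells and less RNA per cell cannot be told apart. Summed markers followed the labels by stage: 8 oocyte markers summed to 8179 to 10090 FPKM in MII oocytes, 1337 to 1694 in 2-cell controls and 5.95 to 10.8 in 4-cell controls. Gdf9, Oosp1, Zar1, Mos, Zp2 and Zp3 were lower in both 2-cell controls than in both oocyte libraries. Bmp15 overlapped, at 605 and 449 FPKM in MII oocytes and 787 and 436 in 2-cell controls, and Zp1 was at 0.569 or less in every library. The 6 markers of the 2-cell burst summed to 89.6 to 115, 646 to 741 and 72.2 to 147. Of these, Tcstv3, Usp17la and Zfp352 were highest in both 2-cell controls. Tcstv1 was higher in MII oocytes (71.6 and 81.5 against 56.6 and 62.1 FPKM in 2-cell controls). Tdpoz4 was higher in 4-cell controls (65.0 and 145 against 48.3 and 62.3). Zscan4d was at 51.3 in replicate 1 of the 2-cell controls and at 0 in replicate 2. Sums of the oocyte markers in Ago2 kd were 1147 to 1324 FPKM at 2-cell and 23.9 to 41.2 at 4-cell, those of the burst markers were 351 to 510 and 82.3 to 180, and the part of these differences in the results was not tested. None of the 9 cumulus and granulosa cell markers has a row, so cells around the oocyte could not be checked, and the 2 of 4 sperm markers with a row summed to 1.78 FPKM or less. Replicate 1 of 4-cell Ago2 kd stood apart: 14.6% of the genes above 10 FPKM in the other replicate were below 0.1 in it, against 1.61% to 5.81% in the other libraries. Many genes are listed at exactly 0, and among the members 16 are at 0 in at least 1 library although every cell needs these enzymes, so values are given by library and a 0 is called a listed 0.

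The cytoplasmic enzymes carried most of the synthetase mRNA in every library. Summed over the 17 genes, they came to 234 and 282 FPKM in MII oocytes, 61.1 and 68.9 in 2-cell controls, and 380 and 463 in 4-cell controls. Ago2 kd embryos had sums of 82.2 and 83.4 at the 2-cell stage and 297 and 402 at the 4-cell stage. The sum was thus lowest in 2-cell embryos and highest in 4-cell embryos, with no overlap between stages. The FPKM of all genes also differed by stage, at 450124 and 458874 in MII oocytes, 178681 to 205895 at 2-cell and 231654 to 326352 at 4-cell. Of these totals the cytoplasmic enzymes made up 0.0519% and 0.0616%, 0.0311% to 0.0460%, and 0.123% to 0.192%. The order of stages was the same, with a smaller fall to the 2-cell stage. The cytoplasmic sum was led by few genes: Farsb alone made up 55.5% to 81.0% of it in the MII and 2-cell libraries, and Rars 37.6% to 84.3% in the 4-cell libraries.

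The 12 mitochondrial enzymes summed to 3.16 and 0.824 FPKM in MII oocytes, 2.25 and 2.01 in 2-cell controls, and 29.8 and 16.9 in 4-cell controls. In Ago2 kd embryos the sums were 1.63 and 2.17 (2-cell) and 17.5 and 15.6 (4-cell). Hars2, the mitochondrial histidyl enzyme, led the 4-cell sums with 46.3% to 71.8%. In every library the mitochondrial sum was lower than the cytoplasmic one.

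**Figure D1:**
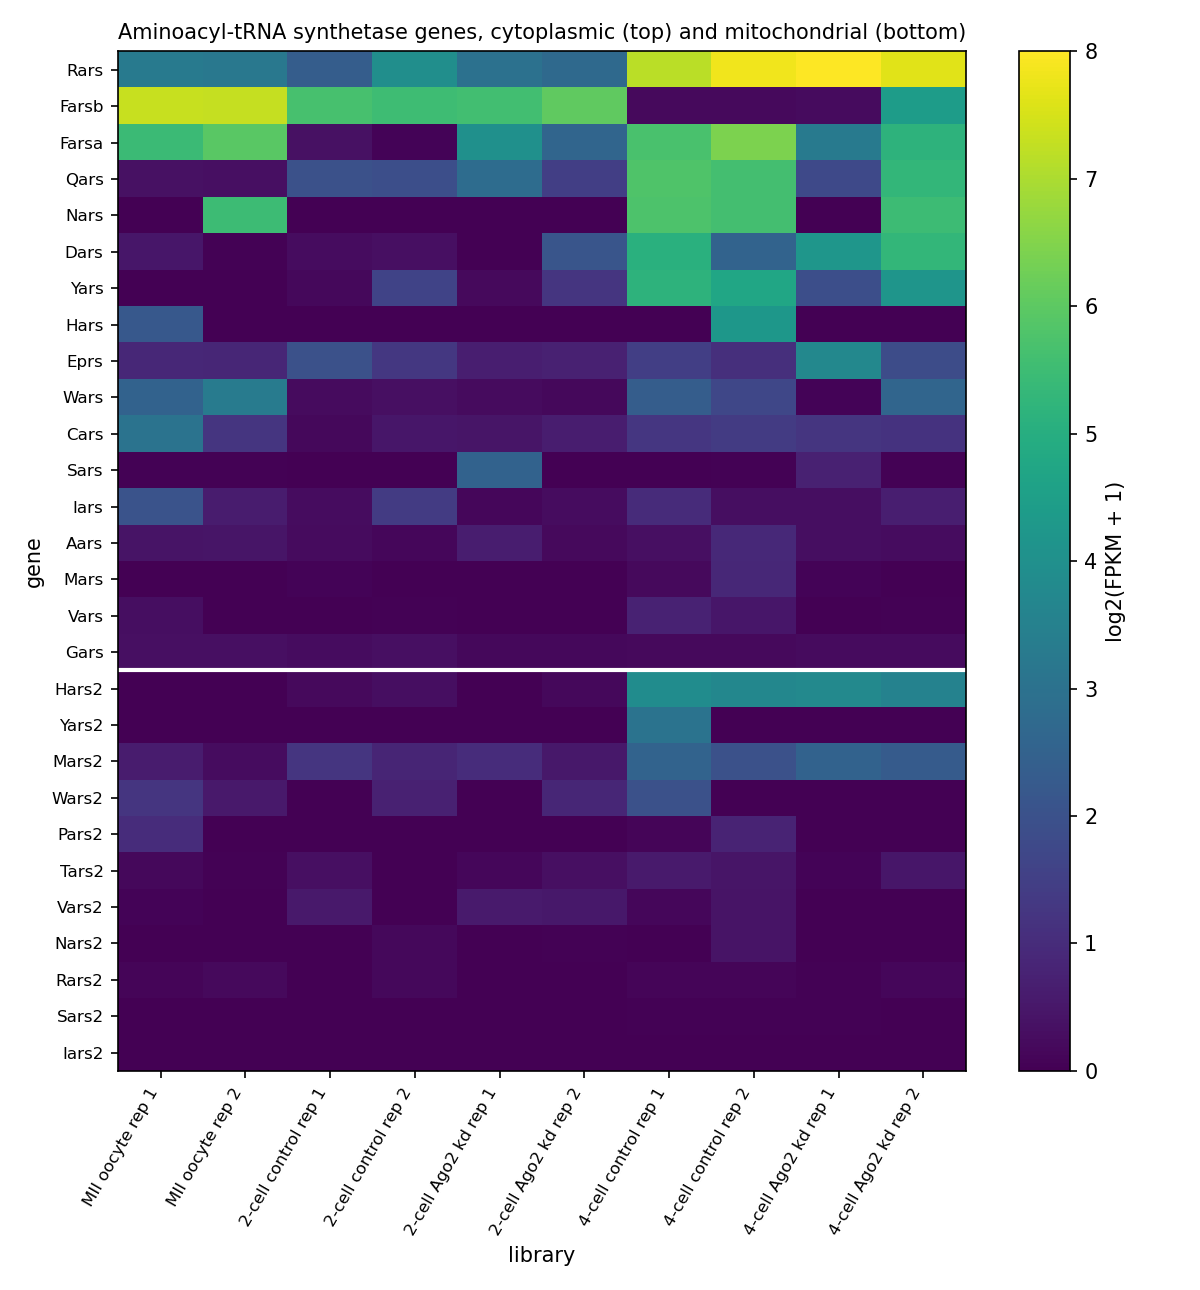
Level of 28 members (rows) in each of the 10 libraries (columns) as log2(FPKM + 1), cytoplasmic enzymes above the white line and mitochondrial enzymes below it, each ordered by its highest value. Rars, Qars, Yars, Dars and Hars2 are bright in 4-cell control libraries, Farsb is bright in oocytes and 2-cell embryos, and most mitochondrial enzymes stay dark throughout.

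A gene entered the tests if 2 or more libraries held it at 1 FPKM or above, and 15 members did so. They were 12 of 17 cytoplasmic enzymes (70.6%) and 3 of 12 mitochondrial ones (25.0%), while 40.7% of all genes passed. None of the 15 reached 1 FPKM in 1 group only. The 12 cytoplasmic genes were Cars, Dars, Eprs, Farsa, Farsb, Hars, Iars, Nars, Qars, Rars, Wars and Yars, and the 3 mitochondrial genes were Hars2, Mars2 and Wars2.

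Of the 14 members that were not tested, 11 stayed below 1 FPKM in every library. 4 of these were cytoplasmic: Aars (0.113 to 0.890 FPKM), Gars (0.119 to 0.267), Mars (0 to 0.842) and Vars (0 to 0.687), the enzymes for alanine, glycine, methionine and valine. 7 were mitochondrial, among them Iars2 (0 to 0.0193), Nars2 (0 to 0.332), Rars2 (0 to 0.151), Sars2 (0 to 0.0302), Tars2 (0 to 0.488) and Vars2 (0 to 0.482). The other 3 passed 1 FPKM in a lone library, which were Sars with 4.72 in replicate 1 of 2-cell Ago2 kd, Pars2 with 1.01 in MII oocyte replicate 1 and Yars2 with 7.31 in 4-cell control replicate 1. Yars2 was listed at 0 in the other 9 libraries, and Sars, the cytoplasmic seryl enzyme, was at 0.653 or less in the others.

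From MII oocyte to 2-cell control embryo, 1 member of 15 tested was called lower and 0 higher. A call here is a Benjamini-Hochberg adjusted p below 0.05 over all 8726 genes tested with limma, and over these genes 14.2% were called lower and 6.54% higher. Without the adjustment, at p below 0.05, the members' counts were 3 lower and 0 higher, where 21.6% of all genes tested passed lower and 11% higher. Farsa, the catalytic subunit of cytoplasmic phenylalanyl-tRNA synthetase, was the member that fell. It measured 43.1 and 61.2 FPKM in MII oocytes and 0.273 and 0.0516 in 2-cell controls. On the scale of log2(FPKM + 1), which understates the change of low genes, the difference was -5.50 (SE 0.74, adjusted p = 0.00293), and it was still called when each of the 4 libraries was left out in turn.

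Wars and Cars came next. Wars, for tryptophan, measured 4.77 and 9.14 FPKM in oocytes and 0.164 and 0.262 in 2-cell controls (log2 difference -2.66, SE 0.79, adjusted p = 0.0569). Cars, for cysteine, measured 7.28 and 1.37 and then 0.136 and 0.387 (log2 difference -1.82, SE 0.56, adjusted p = 0.0621). Neither passed the adjustment, although the groups did not overlap for either gene. Cars was called without MII oocyte replicate 2, in which it was lower than in replicate 1 (log2 difference -2.72, adjusted p = 0.00560).

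Farsb, the other subunit of the phenylalanyl enzyme, was the most abundant member in oocytes, at 161 and 157 FPKM. It measured 49.5 and 45.2 FPKM in 2-cell controls, and its log2 difference of -1.73 (SE 1.17, adjusted p = 0.380) did not pass. The members with the lowest p upward were Mars2 and Qars. Mars2, the mitochondrial methionyl enzyme, measured 0.539 and 0.192 FPKM in oocytes and 1.36 and 0.781 in 2-cell controls (log2 difference 0.60, adjusted p = 0.352). Qars, for glutamine, measured 0.273 and 0.261 and then 2.99 and 2.78 (log2 difference 1.62, adjusted p = 0.368). With the spread taken from the compared libraries only, Farsb was called lower (adjusted p = 0.0146), Wars lower (adjusted p = 0.0473), and Qars and Hars2 higher (adjusted p = 0.0278 and 0.0434).

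From 2-cell to 4-cell control embryo, 7 members were called higher and 1 lower, where 21.1% of all genes tested were called higher and 17.5% lower. The 7 were Farsa, Rars, Yars, Qars and Dars among 12 cytoplasmic genes tested, and Hars2 and Mars2 among 3 mitochondrial ones. Without the adjustment the counts were 8 and 1, where 26% and 20.9% of all genes passed. This comparison shares its 2-cell control libraries with the step before it.

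Farsa returned to 51.1 and 84.6 FPKM in 4-cell controls (log2 difference 5.85, SE 0.74, adjusted p = 0.00124), and its values there overlapped those of oocytes. Rars, the arginyl enzyme and a member of the multi-synthetase complex, was the most abundant member at this stage. It measured 8.70 and 8.20 FPKM in oocytes, 4.11 and 14.4 in 2-cell controls and 143 and 227 in 4-cell controls. Its log2 difference between the 2-cell and 4-cell stages was 4.35 (SE 0.55, adjusted p = 0.00124). Hars2 was listed at 0 in both oocyte libraries, measured 0.156 and 0.234 FPKM in 2-cell controls and reached 13.8 and 12.04 in 4-cell controls (log2 difference 3.54, SE 0.31, adjusted p = 0.000296). Farsa, Rars and Hars2 were still called when each of the 4 libraries was left out in turn. Hars2 overlaps Hars on the opposite strand, but only in a stretch at the starts of both genes. Since it is not stated that counting used strand, reads of that shared stretch cannot be told apart.

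Yars, for tyrosine, was listed at 0 in oocytes and measured 0.123 and 2.08 FPKM in 2-cell controls and 35.1 and 25.8 in 4-cell controls (log2 difference 4.06, SE 0.85, adjusted p = 0.00955). Qars rose to 54.4 and 47.3 FPKM (log2 difference 3.74, SE 1.07, adjusted p = 0.0316). Dars, the aspartyl enzyme, measured 0.213 and 0.260 FPKM in 2-cell controls and 32.7 and 4.89 in 4-cell controls, replicates that were themselves far apart (log2 difference 3.51, SE 0.99, adjusted p = 0.0294). Mars2 reached 4.87 and 2.996 FPKM (log2 difference 1.24, SE 0.38, adjusted p = 0.0408). For each of these genes both 4-cell libraries lay above both 2-cell libraries.

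The calls of these 4 genes depended on single libraries. Yars was not called without replicate 1 of the 2-cell controls (adjusted p = 0.0577) or replicate 1 of the 4-cell controls (0.0519). Qars was not called when any 1 of the 4 libraries was left out (adjusted p from 0.101 to 0.115). Dars and Mars2 were not called without either 2-cell control or without replicate 1 of the 4-cell controls (adjusted p from 0.0989 to 0.131 for Dars and from 0.0701 to 0.151 for Mars2). Mars2 was also not called under any other scaling of the libraries, with log2 differences of 0.90 to 1.06. Leaving out replicate 1 of the 4-cell controls, in which Hars is listed at 0, Hars was called higher (log2 difference 4.22, adjusted p = 0.0173). The number called higher was 3 without replicate 1 and 4 without replicate 2 of the 2-cell controls, and 4 without replicate 1 of the 4-cell controls.

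**Figure D2:**
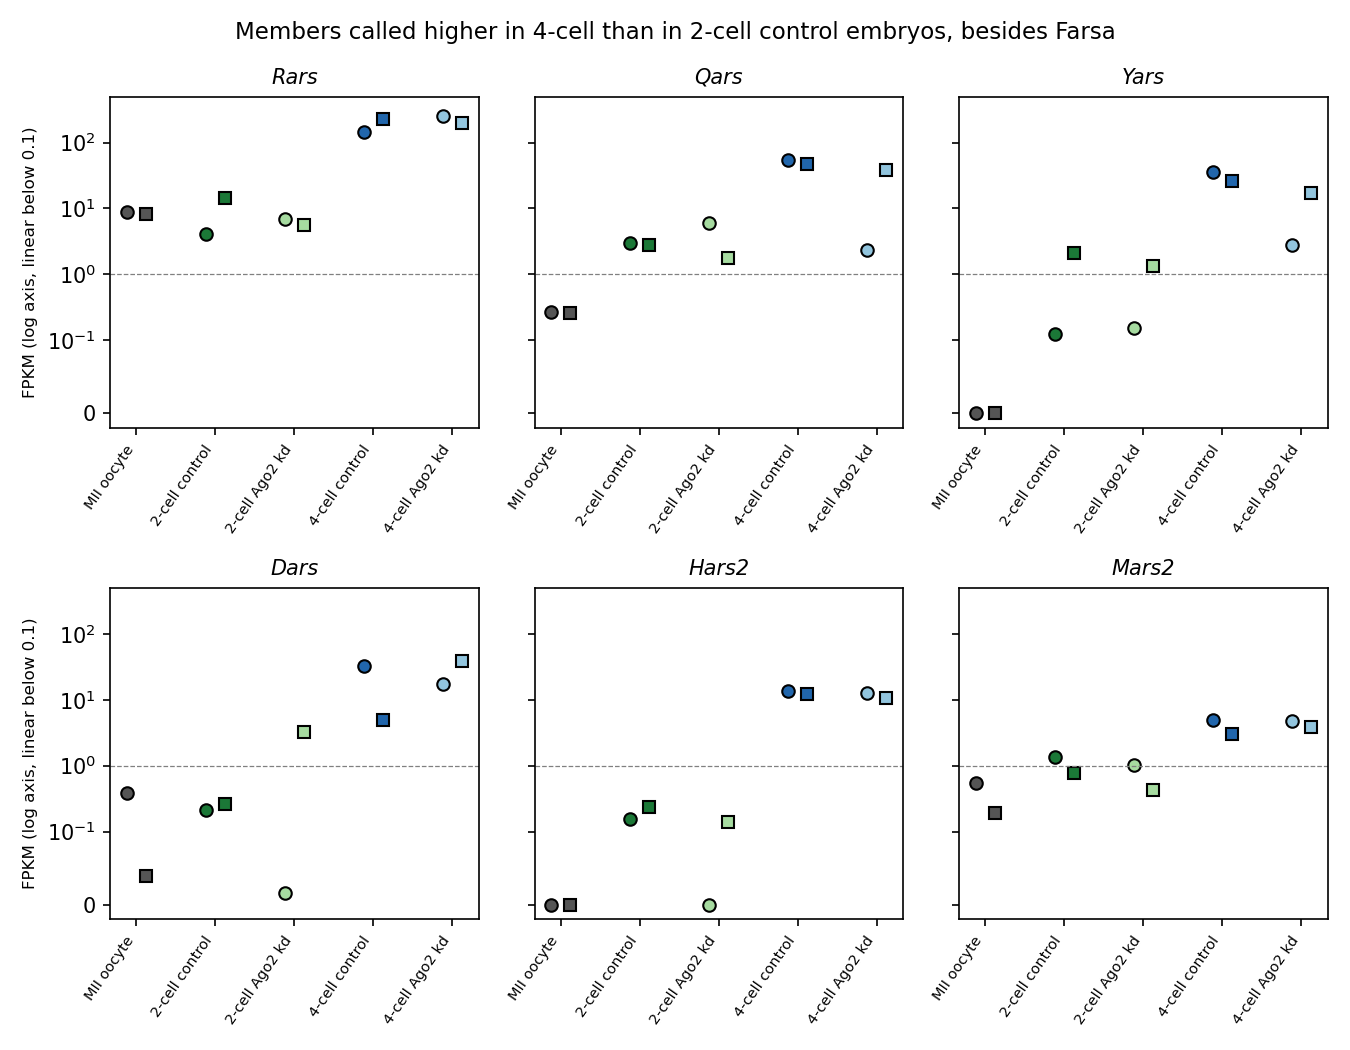
FPKM of 6 members in each library (log axis, linear below 0.1), with circles for replicate 1, squares for replicate 2 and a dashed line at 1 FPKM. In all 6 panels both 4-cell control libraries lie above both 2-cell control libraries, and in 4-cell Ago2 kd replicate 1 Qars (2.38) and Yars (2.76) lie far below replicate 2.

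Farsb was the member that fell. Its values dropped from 49.5 and 45.2 FPKM in 2-cell controls to 0.161 and 0.157 in 4-cell controls (log2 difference -5.38, SE 1.17, adjusted p = 0.0111). The call was lost without replicate 1 of the 2-cell controls or without either 4-cell control, with adjusted p from 0.0531 to 0.0558 and log2 differences of -5.32 to -5.38. FARSA and FARSB proteins are known to work as parts of the same tetramer, yet their mRNAs moved in opposite directions at this step, and in neither 2-cell nor 4-cell controls were both subunits above 1 FPKM. Farsb lies at chr1:78417975-78488897 on the minus strand of GRCm38 with 7 annotated transcripts. Sgpp2 and Gm28995 overlap it on the other strand and 4833412K13Rik on its own strand, so reads of the shared parts cannot be told apart. Farsa lies at chr8:84856989-84869257 on the plus strand with 6 transcripts and overlaps the microRNA gene Mir7069 on its own strand.

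**Figure D3:**
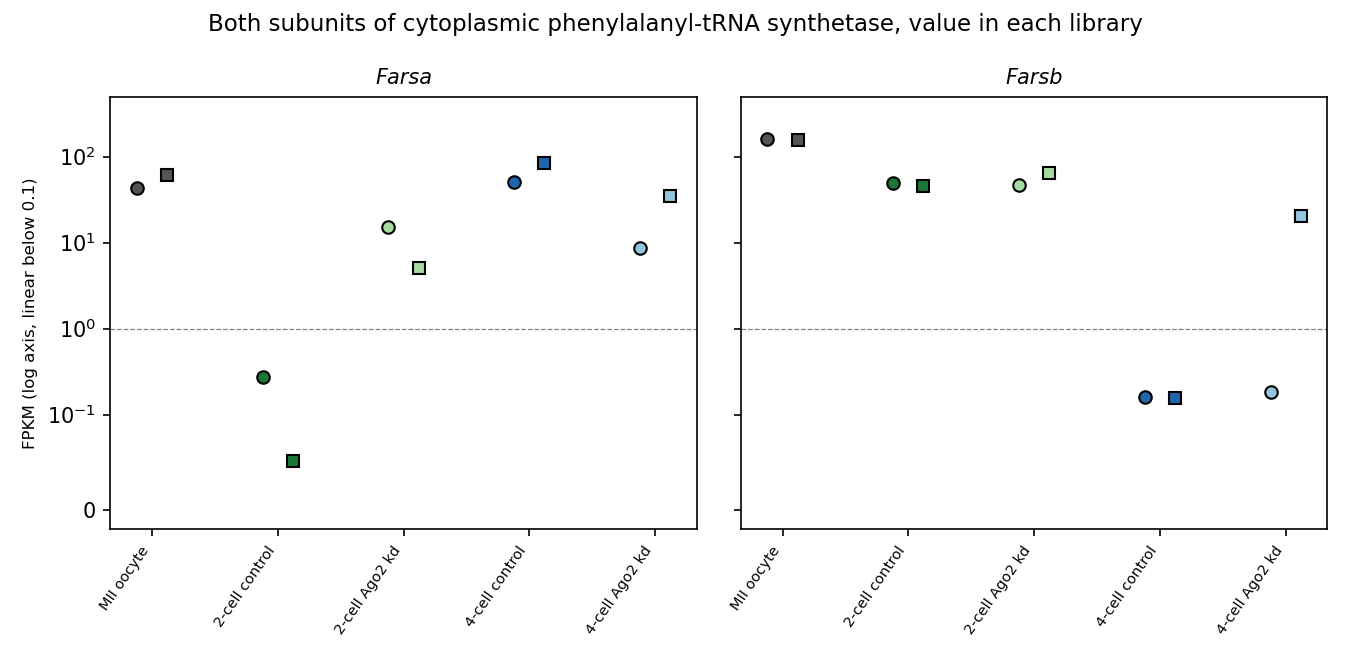
FPKM of Farsa (left) and Farsb (right) in each library (log axis, linear below 0.1), with circles for replicate 1, squares for replicate 2 and a dashed line at 1 FPKM. Farsa is below 1 FPKM in both 2-cell controls and Farsb in both 4-cell controls, while in Ago2 kd embryos Farsa is between 5.07 and 34.7 FPKM in every library.

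The promoters of both subunits are shown because their mRNAs moved oppositely, and those of Dars and Mars2 because both rose at the 4-cell stage. The sequences are the 250 bases before the transcription start, from RefSeq on GRCm38.p6 and written in the direction of the gene, and 19 of the 29 members had an entry. Capitals mark the motifs searched on both strands of the 300 bases from 250 before to 50 after the start.
Farsa (chr8:84856736-84856985, plus strand): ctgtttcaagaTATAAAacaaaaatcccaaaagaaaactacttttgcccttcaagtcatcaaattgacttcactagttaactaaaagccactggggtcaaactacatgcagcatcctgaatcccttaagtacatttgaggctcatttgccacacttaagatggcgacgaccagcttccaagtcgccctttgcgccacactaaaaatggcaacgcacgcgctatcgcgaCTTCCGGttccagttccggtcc
Farsb (chr1:78488898-78489147, minus strand): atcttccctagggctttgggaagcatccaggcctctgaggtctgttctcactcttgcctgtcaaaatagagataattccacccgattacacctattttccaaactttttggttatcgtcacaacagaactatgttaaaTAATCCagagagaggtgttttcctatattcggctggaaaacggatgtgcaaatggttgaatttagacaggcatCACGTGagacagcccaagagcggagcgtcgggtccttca
Dars (chr1:128417417-128417666, minus strand): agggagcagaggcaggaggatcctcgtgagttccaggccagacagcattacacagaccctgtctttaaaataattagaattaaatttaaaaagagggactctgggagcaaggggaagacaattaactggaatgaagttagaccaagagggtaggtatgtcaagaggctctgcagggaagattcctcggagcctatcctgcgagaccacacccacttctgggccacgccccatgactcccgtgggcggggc
Mars2 (chr1:55236927-55237176, plus strand): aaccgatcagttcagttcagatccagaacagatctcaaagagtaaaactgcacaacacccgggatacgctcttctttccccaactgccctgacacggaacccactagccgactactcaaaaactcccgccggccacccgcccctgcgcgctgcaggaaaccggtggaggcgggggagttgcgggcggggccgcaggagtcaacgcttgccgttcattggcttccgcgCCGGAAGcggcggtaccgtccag
The motifs were TGATGNAA (the element bound by ATF4 with C/EBP factors), CACGTG (the E-box), TAATCC (bound by homeodomain factors of the Otx and Obox kind), CCGGAAG (bound by ETS factors) and TATAAA (the TATA box). None of these motifs contains another. Farsa holds CCGGAAG on the minus strand and TATAAA on the plus strand, far from the start, while Farsb holds CACGTG and TAATCC. Mars2 holds CCGGAAG and Dars none of the 5 motifs.

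Over the 19 members with an entry, CCGGAAG was found in 6 (Mars2, Sars, Rars2, Gars, Sars2 and Farsa) against 9.12% of 27025 promoters. TGATGNAA was found in 4 members, Yars, Gars, Aars and Iars, against 4.06% of promoters. In Yars it lies just after the start, shown here in capitals within 30 bases because Yars is the called member that holds it: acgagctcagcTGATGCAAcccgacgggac. CACGTG was found in 3 (Farsb, Aars and Iars) against 7.24%, TAATCC in 2 (Farsb and Iars2) against 7.16%, and TATAAA in 2 (Tars2 and Farsa) against 14.2%. A match gives letters in a window and is not a measured site.

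Over the whole path from MII oocyte to 4-cell control, 6 members were called higher and 1 lower, where 22% of all genes tested were called higher and 26.3% lower. These are the risers of the previous step except Farsa, and again Farsb as the faller. Farsb fell from 161 and 157 to 0.161 and 0.157 FPKM (log2 difference -7.11, SE 1.17, adjusted p = 0.00245). Qars rose by a log2 difference of 5.35 (SE 1.07, adjusted p = 0.00580), Rars by 4.26 (SE 0.55, adjusted p = 0.000831) and Mars2 by 1.84 (SE 0.38, adjusted p = 0.00701). For Yars and Hars2, listed at 0 in oocytes, no fold is given, and their adjusted p were 0.00292 and 0.000129.

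Dars measured 0.389 and 0.0395 FPKM in oocytes and passed with an adjusted p of 0.0222, which was lost without either oocyte library or without replicate 1 of the 4-cell controls (0.0806 to 0.107). Without MII oocyte replicate 2, Cars was called lower (log2 difference -1.71, adjusted p = 0.010), and without replicate 1 of the 4-cell controls, Hars was called higher (log2 difference 3.11, adjusted p = 0.0328). With libraries scaled to equal sums of FPKM, the median over all genes tested moved to 0.24 from -0.06 at the oocyte to 2-cell step and to 0.32 from 0.00 over the whole path. That scaling called 954 genes higher and 633 lower at the first step, against 571 and 1240, and 2206 and 1716 over the whole path, against 1923 and 2299. Scaling to equal medians gave 765 and 876 at the first step and quantile normalization 722 and 779. The 6 higher and 1 lower members of the whole path kept these counts within 1.5 times under each scaling.

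The members that did not pass in any stage comparison were Cars, Eprs, Hars, Iars, Nars, Wars and Wars2. This list depends on where the spread is taken from. With the spread of the compared libraries only, Nars (limma adjusted p = 0.00891), Cars (0.0378) and Wars (0.0456) were called higher from 2-cell to 4-cell control, while Dars (0.1002) and Mars2 (0.123) were not called, and over the whole path Dars was not called (0.0799). Eprs, which joins both glutamate and proline, stayed between 0.797 and 2.96 FPKM in the 6 control and oocyte libraries. Iars, for isoleucine, ranged from 0.195 to 3.10 FPKM over the same libraries. Nars, for asparagine, was listed at 0 in MII oocyte replicate 1 and at 43.6 FPKM in replicate 2, at 0 in both 2-cell controls, and at 53.9 and 48.2 in 4-cell controls (2-cell to 4-cell adjusted p = 0.0728, SE 2.11 on the log2 scale). Hars was at 3.64 FPKM in MII oocyte replicate 1, at 17.7 in 4-cell control replicate 2 and at 0 in the other 8 libraries. Nars and Hars thus went from above 10 FPKM to a listed 0 between replicates of 1 group, which happened in 3 of the 37 cases in which a member was above 10 FPKM in the other replicate.

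Wars2 was at 1.34 and 0.455 FPKM in oocytes, 0 and 0.662 in 2-cell controls, 2.97 and 0 in 4-cell controls, 0 and 0.806 in 2-cell Ago2 kd and 0 in both 4-cell Ago2 kd libraries. Wars returned to 4.15 and 2.23 FPKM in 4-cell controls (log2 difference 1.75, adjusted p = 0.129) and Cars to 1.43 and 1.62 (log2 difference 1.01, adjusted p = 0.204). At this stage Wars lay below both of its oocyte values, and Cars overlapped them.

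Cytoplasmic and mitochondrial enzymes were compared over all 29 members by the median change of log2(FPKM + 1), as a description. From oocyte to 2-cell control the medians were -0.11 for the cytoplasmic and 0.03 for the mitochondrial enzymes, beside -0.06 for all genes tested. From 2-cell to 4-cell control they were 1.01 and 0.24, beside 0.24. Over the whole path they were 0.42 and 0.16, beside 0.00. The gap between the kinds, cytoplasmic minus mitochondrial, was 0.77 at the 2-cell to 4-cell step. Within single libraries, the difference of the median levels of the kinds had a replicate SD of 0.494, which is not an SD of the gap in changes. At the oocyte to 2-cell step it was -0.15, but -0.72 with a pseudocount of 0.1, -0.79 as a mean and -1.06 over the members above the filter on low values. Over the whole path it was 0.25, but -1.13 over the members above that filter. Most mitochondrial genes were below 1 FPKM, where this scale compresses changes.

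**Figure D4:**
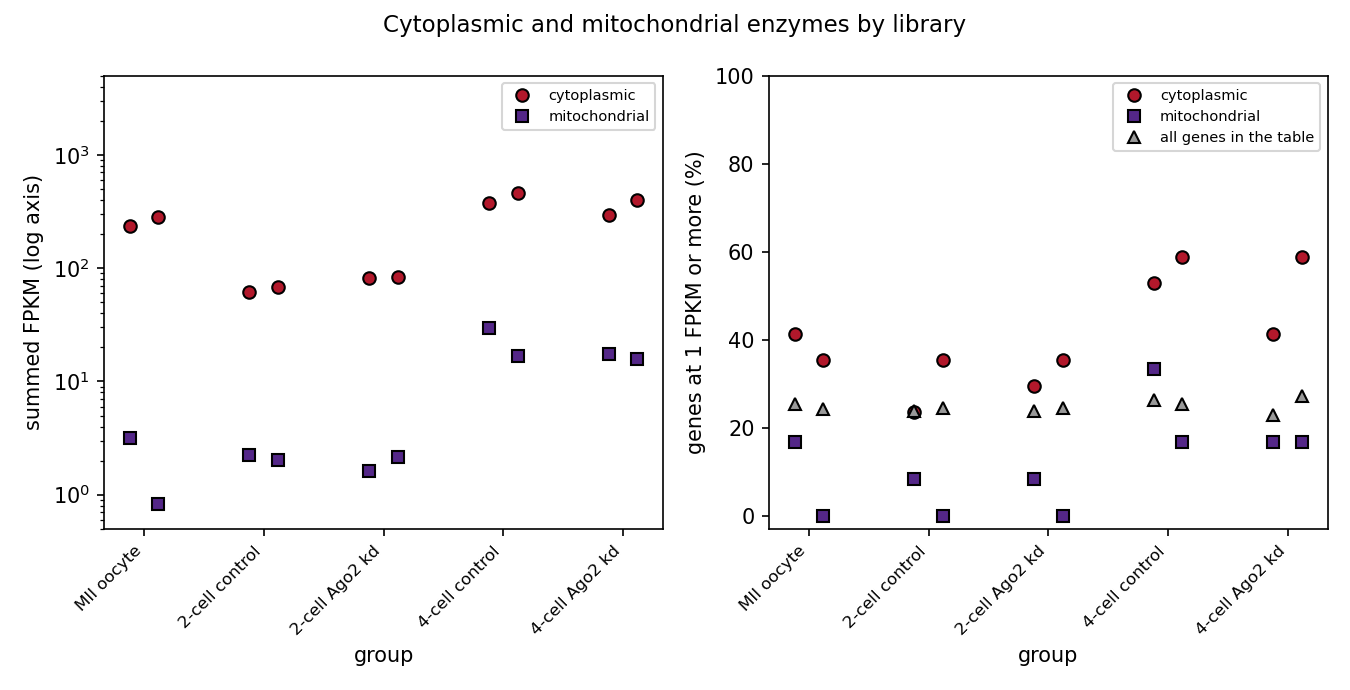
Summed FPKM of the 17 cytoplasmic and 12 mitochondrial enzymes in each library (left, log axis), and the percentage of genes at 1 FPKM or more among them and among all 21437 genes (right). The sums of both kinds are highest in the 4-cell groups, and the mitochondrial percentage is 33.3% or less in every library.

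At 1 FPKM or more stood 41.2% and 35.3% of the cytoplasmic enzymes in the oocyte libraries, 23.5% and 35.3% in 2-cell controls, and 52.9% and 58.8% in 4-cell controls. Mitochondrial enzymes reached 16.7% and 0% in oocytes, 8.33% and 0% in 2-cell controls, and 33.3% and 16.7% in 4-cell controls. 9 cytoplasmic members reached 10 FPKM in some library, but Hars2 was the 1 mitochondrial member to do so.

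For 10 amino acids both the cytoplasmic and the mitochondrial gene are in the table. Iars and Rars were higher than Iars2 and Rars2 in all 10 libraries. Methionine was the exception that held throughout: Mars2 exceeded Mars in 10 of 10 libraries, with Mars at 0 in 6 of them and at 0.842 FPKM or less in the others. Mars overlaps Ddit3 on the other strand, so reads of the shared part cannot be told apart. Histidine was mixed, since Hars2 was higher in 6 libraries, Hars in 2 and both were listed at 0 in 2. Counted by whole groups, the cytoplasmic gene was higher in both libraries for 5 of 10 amino acids in oocytes, 5 in 2-cell controls and 6 in 4-cell controls, and the mitochondrial gene for 1, 2 and 1.

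From 2-cell to 4-cell control 21.1% of all genes tested were called higher and 17.5% lower. By complex, 3 of 5 tested members of the multi-synthetase complex were called higher (Dars, Qars and Rars, but not Eprs or Iars). Outside it, 2 of 7 tested cytoplasmic enzymes were called higher (Farsa and Yars) and 1 lower (Farsb). By the structural class of the catalytic domain, 4 of 8 tested class I enzymes were called higher (Mars2, Qars, Rars and Yars). Among 6 tested class II enzymes 3 were called higher (Dars, Farsa and Hars2) and Farsb lower. The calls of Dars, Qars, Yars, Mars2 and Farsb were lost when single libraries were left out, as given above. The differences between these kinds were not tested.

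Knockdown of Ago2, the Argonaute protein that cuts RNAs matched by small interfering RNAs, was compared with controls at each stage to ask which mRNAs its loss leaves higher. No member passed. At the 2-cell stage limma called 0 of 15 members higher and 0 lower, where 0.332% and 0.218% of all genes tested were called. Without the adjustment, at p below 0.05, the counts were 1 higher and 0 lower, where 2.96% and 3% of all genes passed.

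The member that passed without the adjustment was Farsa. It measured 15.2 and 5.07 FPKM in 2-cell Ago2 kd embryos, against 0.273 and 0.0516 in 2-cell controls and 43.1 and 61.2 in oocytes. The log2 difference from control was 3.10 (SE 0.74, limma adjusted p = 0.238). Both Ago2 kd libraries lay above both controls and below both oocyte libraries. The oocyte markers summed to 1147 to 1324 FPKM in 2-cell Ago2 kd and 1337 to 1694 in 2-cell controls, but their genes were split: of 7 tested, 5 had a positive log2 difference and 2 a negative one, with a median of 0.42 and 0 called by limma or at an unadjusted p below 0.05. Gdf9, a growth factor of the oocyte, was at 181 and 179.9 FPKM in Ago2 kd, above both controls at 143 and 127, and Bmp15, another, was at 392 and 316 against 787 and 436. The part of these markers in the Farsa values was not tested. Downward, Eprs and Iars had the lowest p, with 0.606 and 0.654 FPKM against 2.96 and 1.45 for Eprs (log2 difference -0.93, SE 0.62) and 0.114 and 0.209 against 0.195 and 1.61 for Iars (log2 difference -0.60, SE 0.57).

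Farsb, at 47.2 and 64.4 FPKM in 2-cell Ago2 kd, overlapped its controls (log2 difference 0.22, SE 1.17). Rars (6.87 and 5.68 FPKM), Qars (6.07 and 1.78), Yars (0.151 and 1.34) and Mars2 (1.04 and 0.425) also overlapped theirs. Dars was at 0.0157 and 3.27 FPKM, replicates that spanned the controls (log2 difference 0.75, SE 0.99). Sars, not tested, was at 4.72 FPKM in replicate 1 and at 0.0171 in replicate 2.

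At the 4-cell stage limma again called 0 of 15 members in either direction, where 1.23% of all genes tested were called higher and 2.77% lower. Without the adjustment there was 1 member higher and 1 lower, where 7.37% and 8.07% of all genes passed. Eprs was the higher one, at 12.4 and 2.65 FPKM against 1.79 and 1.10 in 4-cell controls (log2 difference 1.53, SE 0.62, adjusted p = 0.307). Farsa was the lower one, at 8.77 and 34.7 FPKM against 51.1 and 84.6 (log2 difference -1.84, SE 0.74, adjusted p = 0.30). For both genes the groups did not overlap.

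Several members split between the Ago2 kd replicates of this stage. Farsb was at 0.186 FPKM in replicate 1 and 20.5 in replicate 2, against 0.161 and 0.157 in controls (log2 difference 2.12, SE 1.17, adjusted p = 0.475). The summed oocyte markers were also higher in 4-cell Ago2 kd (41.2 FPKM in replicate 1 and 23.9 in replicate 2) than in 4-cell controls (5.95 to 10.8), with 4 of 7 tested markers at a positive and 1 at a negative log2 difference (median 0.27, 0 called by limma, 2 at an unadjusted p below 0.05), and their part in the Farsb values was not tested. Qars was at 2.38 and 38.4 FPKM against 54.4 and 47.3 (log2 difference -2.17, adjusted p = 0.412), and Yars at 2.76 and 17.2 against 35.1 and 25.8 (log2 difference -1.91, adjusted p = 0.350). Nars was listed at 0 in replicate 1 and at 43.5 in replicate 2, and Wars was at 0.0564 and 5.15 FPKM. Replicate 1 is the library that stood apart in its low values. Without it Farsb was called higher (log2 difference 4.21, adjusted p = 0.00363). Without replicate 2, Eprs was called higher (log2 difference 2.47, adjusted p = 0.0238) and Qars lower (log2 difference -3.94, adjusted p = 0.0163). Each of these calls rests on 1 Ago2 kd library, which is assumed to vary like the other groups.

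Of the 7 members called higher from 2-cell to 4-cell control, Rars, Hars2, Mars2 and Dars overlapped their controls in 4-cell Ago2 kd. Farsa, Qars and Yars lay below both of theirs, as given above. These 7 were chosen by high values in the same 4-cell control libraries, so lower values in Ago2 kd are favoured in advance. The share of all genes with such groups was not computed, so nothing is read from these numbers of members. Rars was at 251 and 199 FPKM in Ago2 kd against 143 and 227 (log2 difference 0.31, SE 0.55). Hars2 was at 12.6 and 10.8 against 13.8 and 12.04 (log2 difference -0.13, SE 0.31), and Mars2 at 4.77 and 3.91 against 4.87 and 2.996 (log2 difference 0.14, SE 0.38). Dars was at 17.4 and 38.3 FPKM and overlapped its controls (log2 difference 0.93, SE 0.99). Cars, which was not called at that step, was at 1.36 and 1.25 FPKM against 1.43 and 1.62 (log2 difference -0.13, SE 0.56).

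**Figure D5:**
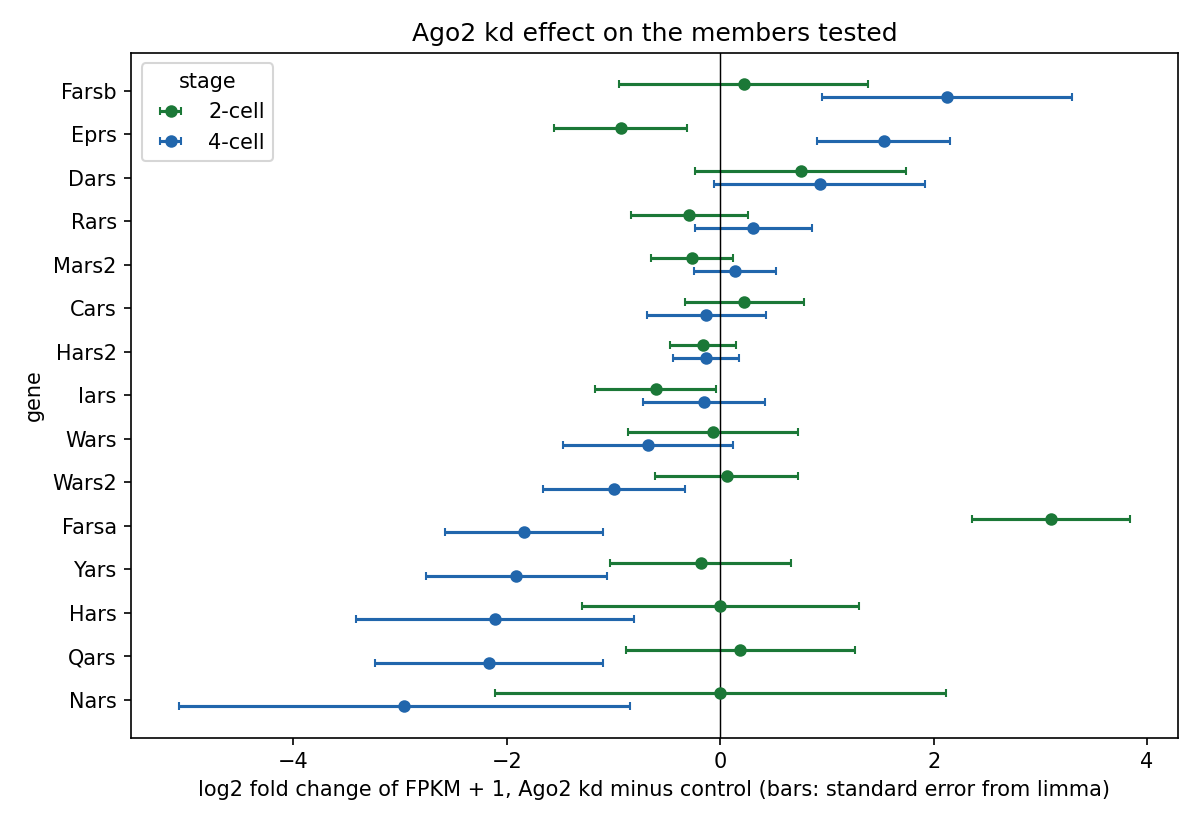
Log2 difference of FPKM + 1 between Ago2 kd and control embryos (x axis) for the 15 members tested (y axis), at the 2-cell (green) and 4-cell stage (blue), with bars for the standard error from limma. Farsa lies at 3.10 at the 2-cell and -1.84 at the 4-cell stage, Eprs at -0.93 and 1.53, and no difference passed the adjustment.

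Whether the effect of Ago2 kd differed between the stages was tested as an interaction. It called 0 members higher and 0 lower by limma, where 0.642% and 1.64% of all genes tested were called, and without the adjustment it gave 1 higher and 1 lower, where 6.27% and 7.11% of all genes passed. Farsa moved by -4.94 on the log2 scale from the 2-cell to the 4-cell effect (SE 1.05, adjusted p = 0.0744). Eprs moved by 2.46 (SE 0.88, adjusted p = 0.286). Farsa passed with a pseudocount of 0.1 FPKM (adjusted p = 0.0358) and with libraries scaled to equal sums (adjusted p = 0.0459). Without replicate 2 of 4-cell Ago2 kd, Farsa (adjusted p = 0.0212), Eprs (0.0247) and Qars (0.0428) passed, and without replicate 1 Farsb did (log2 difference 4.00, adjusted p = 0.0141).

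Median changes under Ago2 kd were 0.00 for the cytoplasmic and -0.01 for the mitochondrial enzymes at the 2-cell stage, and -0.34 and -0.18 at the 4-cell stage, beside 0.00 for all genes tested at both. In 4-cell Ago2 kd 41.2% and 58.8% of the cytoplasmic enzymes stood at 1 FPKM or more, the lower share being that of replicate 1. The gap between the kinds was smaller in size at both stages than 0.494, the replicate SD of the difference of their median levels. Since that is not an SD of the gap in changes, nothing is read from this.

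Genes that work beside the synthetases were read from lists of partners, amino acid response genes and amino acid transporters. Of 12 tested cytoplasmic partners (16 listed), 3 were called higher and 0 lower from 2-cell to 4-cell control (median log2 difference 2.53, beside 0.24 for all genes tested), where 21.1% of all genes tested were called higher and 17.5% lower, a share close to that of the partners called higher. Aimp1, a scaffold of the multi-synthetase complex, was at 0 and 0.00116 FPKM in 2-cell and at 11.5 and 2.99 in 4-cell controls (log2 difference 2.82, adjusted p = 0.00508). Prorsd1, a homologue of the domain that edits mischarged prolyl-tRNA, went from 0.566 and 1.12 to 13.5 and 4.56 FPKM (log2 difference 2.30, adjusted p = 0.0233). Dtd1, which removes D-amino acids from tRNAs, was listed at 0 in oocytes and 2-cell controls and at 20.5 and 9.26 in 4-cell controls (adjusted p = 0.0296).

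In 4-cell Ago2 kd, 1 of 12 cytoplasmic partners was called lower and 0 higher, where 2.77% and 1.23% of all genes tested were. It was Aimp1, at 0.397 and 0.00210 FPKM (log2 difference -2.58, limma adjusted p = 0.0396). With the spread taken from the compared libraries only, limma called 0 of the 8726 genes in either direction at both stages of Ago2 kd. The Ago2 kd calls of Aimp1, and of Hsd17b10, Slc7a11 and Cebpb below, were thus lost in that setting. From oocyte to 2-cell control 1 partner was called lower and 0 higher, where 14.2% and 6.54% of all genes tested were. It was Dtd2, which fell from 2.21 and 4.61 to 0.511 and 0 FPKM (limma adjusted p = 0.0163). Over the whole path 5 of 12 cytoplasmic partners were called higher and 1 lower, where 22% and 26.3% of all genes were. Among the 5, the elongation factor Eef1a1, which brings charged tRNAs to the ribosome, was at 0.577 and 0.583 FPKM in oocytes and 556 and 434 in 4-cell controls (log2 difference 8.28, SE 1.72, limma adjusted p = 0.00682). In 2-cell controls its replicates were far apart, at 121 and 0.547 FPKM, so its low values may not be its true level.

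Of 4 tested mitochondrial partners (13 listed), Trmt10c, a subunit of mitochondrial RNase P, was called higher at the 2-cell to 4-cell step, from 23.2 and 24.7 to 58.6 and 120 FPKM (log2 difference 1.77, adjusted p = 0.0203), with a list median of 0.01. Tsfm, a mitochondrial elongation factor, fell from 4.24 and 6.72 in oocytes to 0.555 and 0.0875 in 2-cell controls (log2 difference -2.29, adjusted p = 0.0376). In 4-cell Ago2 kd, Hsd17b10, another subunit of mitochondrial RNase P, was called higher at 15.5 and 10.7 FPKM against 2.44 and 0 (log2 difference 2.90, adjusted p = 0.0476). Mitochondrial partners had 0 calls under Ago2 kd at the 2-cell stage, as had the cytoplasmic ones. There 0.332% of all genes tested were called higher and 0.218% lower. Under Ago2 kd at the 4-cell stage these shares were 1.23% and 2.77%. They were 21.1% and 17.5% from 2-cell to 4-cell control, and 6.54% and 14.2% from oocyte to 2-cell control. Beside these shares, nothing is read from the counts of this list.

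ATF4 is the transcription factor that cells use when amino acids are short, and several synthetase genes are among its known targets. Of 21 tested genes of this pathway (27 listed), 4 were called higher and 4 lower from 2-cell to 4-cell control, shares near the 21.1% and 17.5% of all genes, with a median log2 difference of 1.08. Psat1, an enzyme of serine synthesis, rose from 7.47 and 0.475 to 153 and 105 FPKM (log2 difference 5.17, adjusted p = 0.00353), and Asns, asparagine synthetase, from 0.143 and 0.166 to 15.9 and 5.19 (log2 difference 3.15, adjusted p = 0.00934). Atf3 was listed at 0 in 4-cell controls after 7.35 and 2.30 FPKM in 2-cell controls (adjusted p = 0.0157), and Trib3 fell from 2.45 and 15.9 to 0.268 and 0.337 (log2 difference -2.55, adjusted p = 0.0283). Atf4 itself measured 21.0 and 155 FPKM in 2-cell and 140 and 266 in 4-cell controls.

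From oocyte to 2-cell control 2 of these pathway genes were called higher (Atf3 and Trib3) and 3 lower (Eif2ak3, Slc7a11 and Asns), beside 6.54% and 14.2% of all genes. Slc7a11, a cystine transporter, fell from 12.8 and 11.96 to 0.107 and 1.13 FPKM (log2 difference -3.12, adjusted p = 0.00242). In 2-cell Ago2 kd embryos it measured 11.4 and 9.24 FPKM and was the pathway gene called higher there (log2 difference 2.88, limma adjusted p = 0.0404). In that comparison 0.332% of all genes tested were called higher. In 4-cell Ago2 kd, where 2.77% of all genes tested were called lower, Cebpb was called lower. It was at 0.153 and 0.205 FPKM against 2.31 and 5.40 (log2 difference -1.96, limma adjusted p = 0.0215). Of 4 tested amino acid transporters (12 listed), Slc7a6 was called higher at the 2-cell to 4-cell step, beside 21.1% of all genes tested. It went from 0 in both libraries to 22.2 and 23.3 FPKM (limma adjusted p = 0.00580). Under Ago2 kd 0 were called, where 1.23% of all genes tested were called higher and 2.77% lower at the 4-cell stage. At that stage 3 of the 4 passed without the adjustment, where 7.37% and 8.07% of all genes did. Slc7a6 (0 and 6.73 FPKM) and Slc3a2 (0 in both against 23.6 and 8.12) were lower. Slc1a5 was higher (8.85 and 10.9 against 2.97 and 1.83). From oocyte to 2-cell control Slc1a5, a glutamine transporter, was the transporter called higher, beside 6.54% of all genes (log2 difference 1.39, limma adjusted p = 0.0437). Over the whole path 1 mitochondrial partner was called higher and 1 lower, 2 pathway genes higher and 5 lower, and 2 transporters higher and 0 lower. Beside the 22% of all genes called higher and 26.3% lower there, nothing is read from these counts.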

How the data were processed

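The authors sequenced RNA of 10 libraries, 2 in each of 5 groups. Groups and replicate numbers were taken from the labels. Reads were checked with FastQC, trimmed with Trim Galore, aligned to GRCm38.p6 with HISAT2 (2.1.0 per the submitters' processing notes, which also name CASAVA 1.4) and counted with HTSeq-count. The values used are the FPKM that the authors computed with StringTie and deposited, 1 for each gene name and library. How several transcripts were reduced to 1 row was not stated. Depth is unknown: multiplied by exon length, the most common low value was shared by 1.08% to 2.65% of the genes with a single transcript, so whole reads could not be recovered, and precision was judged from replicates.

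FPKM were analysed as log2(FPKM + 1) in R 4.3.3 with limma 3.58.1 (group means, 10 libraries, 5 residual degrees of freedom, variance trend), over 8726 genes, those that 2 or more libraries held at 1 FPKM or above. Tests were two-sided with Benjamini-Hochberg adjustment and a threshold of 0.05. The script was checked on simulated data. An exact test of 2 against 2 libraries cannot go below p = 0.333 and was not used. The study's DESeq2 test needs counts and was not repeated. Alternatives were another pseudocount, other filters and scalings, a fit on the compared groups, a replicate block and leaving out each library.

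All members but 1, which is not reported here, are named. Called members (up to 6 in each direction and comparison), or else the 2 with the lowest p in a direction, are given by library, with up to 3 called genes of each list and direction. The members and lists were chosen with earlier results of these data known. Positions and overlaps are from GENCODE M21 on GRCm38, promoters from RefSeq.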

Additional observations from a re-analysis of the deposited data

Results flagged for a closer look

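Farsa and Eprs had whole groups on opposite sides of their controls at the 2 stages of Ago2 kd. Farsa lay above both controls in 2-cell Ago2 kd libraries and below both in 4-cell ones, and the difference of the effects was -4.94 on the log2 scale (limma adjusted p = 0.0744 over all genes tested). Eprs lay below and then above, with a difference of 2.46 (limma adjusted p = 0.286). Neither difference passed the adjustment. Groups of 2 and 2 libraries can easily fail to overlap, since an exact test of them cannot go below p = 0.333. The share of all genes with such opposite sides was not computed, so nothing is read from the number of members. Gars, which was below the filter and not tested, also lay below both controls at the 2-cell stage (0.119 and 0.128 against 0.194 and 0.245 FPKM) and above both at the 4-cell stage (0.175 and 0.165 against 0.146 and 0.143 FPKM).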

How the results depend on the processing

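With counts of members called, the settings that moved a count were as follows. From oocyte to 2-cell control, the 1 member called lower became 2 with a pseudocount of 0.1, and 3 with a filter of 1 FPKM in 4 libraries, with the compared groups only, or at the unadjusted p, and 1 to 2 leaving out a library. The 0 called higher became 2 with the compared groups only. From 2-cell to 4-cell control, leaving out a library gave 3 to 6 higher (7 with all) and 0 to 1 lower (1 with all), and over the whole path 5 to 6 higher and 1 to 2 lower. At the unadjusted p, 1 member was higher under Ago2 kd at the 2-cell stage, and 1 higher and 1 lower at the 4-cell stage, where leaving out a library gave 0 to 1 each. For the difference between stages, 1 was lower with a pseudocount of 0.1, 1 with equal sums and 1 at the unadjusted p, with 0 to 2 leaving out a library, and 1 was higher at the unadjusted p, with 0 to 1 leaving out a library. The causes were not tested. Without a filter Vars was called higher at both the 2-cell to 4-cell step and over the whole path. At the 2-cell to 4-cell step Dars (limma adjusted p = 0.0678), Qars (0.0726) and Mars2 (0.0801) were then not called, which left 5 members higher.

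The cytoplasmic minus mitochondrial median at the oocyte to 2-cell step was -0.15, and -0.72 with a pseudocount of 0.1, -0.79 as a mean and -1.06 over members above the filter. At the 2-cell to 4-cell step it was 0.77, and 1.60 with a pseudocount of 0.1 and 1.57 above the filter. Over the whole path it was 0.25, -1.13 above the filter, and -0.15 to 0.32 leaving out a library.

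Replicate numbers did not pair the samples: the correlation of deviations between same-numbered libraries ran from -0.09 to 0.09 over 10 pairs. With a replicate block the counts were 0 higher and 1 lower from oocyte to 2-cell, 7 and 1 from 2-cell to 4-cell, 6 and 1 over the whole path, and 0 under Ago2 kd and for the difference between stages. No named difference that was called changed sign under any setting. Unknown depth limits what can be said of values below 1 FPKM.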
